A study of Mus musculus with 6 samples.

Results

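Large T cell clones were set against cells whose receptor was seen once, among colonic lamina propria CD4 T cells sorted as tdTomato+GFP+. A T cell was kept when it had a hashed replicate and both an alpha and a beta receptor junction, and a clonotype was a pair of nucleotide junctions within 1 replicate. Cells of clonotypes with 5 or more cells are called large-clone cells here, and cells of clonotypes with 1 cell are called single cells. Of 23595 cells in the study, 8765 were tdTomato+GFP+ cells with a replicate and 6111 of these (69.7%) carried both chains. They formed 1614 clonotypes, of which 271 were large (4074 cells), 906 were single and 437 held 2 to 4 cells (1131 cells). The members were chosen by the number of cells per clonotype, a measured value, so clone sizes are given as a description and carry no test.

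The study profiled RNA and T cell receptors of single CD4 T cells from the mouse colon in droplets, in 2 sorted populations. At Foxp3 the mice were Foxp3{delta}EGFPiCre/WT, and at the reporter locus they were R26lsl-tdTomato/wt, so the allele and the reporter were present in both populations and in every size class. Foxp3, which defines regulatory T (Treg) cells, lies on the X chromosome; the inserted EGFP and recombinase iCre are named in the allele, whose delta the labels do not explain, and Cre removes the stop in front of tdTomato in the R26 locus. A tdTomato+GFP+ cell thus held EGFP from the inserted allele when it was sorted, while tdTomato-GFP- cells showed neither fluorescence, and cells with 1 reporter only are in neither gate. Age, sex and treatment of the mice are not given in the sources used here. Each gate was 1 lane with 3 hashed replicates, and the labels do not say whether a replicate is 1 animal, so p-values measure the spread between hashed replicates. Within a replicate, large-clone and single cells shared the hashtag, the lane and the tissue preparation.

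An alpha beta T cell makes its receptor by joining V, D and J segments, and the joint, called the junction, contacts the antigen. Daughter cells inherit the junctions, so cells with the same pair of nucleotide junctions in 1 mouse are read as descendants of 1 cell that divided. In the colon, effector CD4 T cells of the Th17 type make the cytokines Il17a and Il17f, often in response to gut bacteria, and Treg cells hold such responses in check. Naive and central memory T cells carry the factors Tcf7, Lef1 and Klf2 and the homing receptors Ccr7 and S1pr1, which lead them through lymph nodes.

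The largest clonotypes are shown by their receptors, because the comparison rests on them. The largest held 143, 196 and 97 cells in replicates 1 to 3, which was 10.4%, 6.35% and 5.90% of the cells with both chains. Junctions are deposited nucleotide sequences, 5' to 3', from the codon of the conserved cysteine to that of the phenylalanine that ends the junction. They are rearranged, so they have no single interval in the genome. Capitals mark bases that lie outside the start shared by at least 5 junctions of the same V segment and the end shared by at least 5 junctions of the same J segment in these data; a junction in lower case throughout has none.
Replicate 1, 143 cells, alpha (TRAV14D-2, TRAJ40): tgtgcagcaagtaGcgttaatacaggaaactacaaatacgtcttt
Replicate 1, 143 cells, beta (TRBV20, TRBJ2-7): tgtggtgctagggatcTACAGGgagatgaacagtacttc
Replicate 1, 94 cells, alpha (TRAV9D-3, TRAJ39): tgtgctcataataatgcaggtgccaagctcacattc
Replicate 2, 196 cells, alpha (TRAV6N-7, TRAJ22): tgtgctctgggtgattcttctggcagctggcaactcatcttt
Replicate 2, 196 cells, beta (TRBV19, TRBJ1-3): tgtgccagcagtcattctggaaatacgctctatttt
Replicate 3, 97 cells, alpha (TRAV6-7-DV9, TRAJ56): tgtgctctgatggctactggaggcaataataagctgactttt
Replicate 3, 97 cells, beta (TRBV15, TRBJ2-7): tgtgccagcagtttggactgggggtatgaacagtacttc
The clonotype of 94 cells in replicate 1 had the same beta junction as the one of 143 cells, with another alpha junction. Of their 237 cells, 45 of the first clonotype and 52 of the second carried the other's alpha junction as a second alpha chain. The rule counts them as 2 clonotypes, and 8 beta junctions in all were shared in this way by 2 large clonotypes of a replicate. The largest clonotypes with more cells in the Th2-like cluster than in any other class had these receptors.
Replicate 2, 38 cells, alpha (TRAV7-5, TRAJ40): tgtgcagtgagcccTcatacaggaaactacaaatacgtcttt
Replicate 2, 38 cells, beta (TRBV15, TRBJ2-5): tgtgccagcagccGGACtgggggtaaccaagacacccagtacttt
Replicate 3, 26 cells, alpha (TRAV5D-4, TRAJ21): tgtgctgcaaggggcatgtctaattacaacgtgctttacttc
Replicate 3, 26 cells, beta (TRBV31, TRBJ1-1): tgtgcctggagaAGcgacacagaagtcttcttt

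Large clones held most of the tdTomato+GFP+ cells with both chains. Their share was 81.5% in replicate 1, 66.1% in replicate 2 and 55.3% in replicate 3, and that of single cells was 7.70%, 14.3% and 21.7% in the same order. A few clonotypes carried much of this: 24 clonotypes of 30 or more cells held 1593 of the 4074 large-clone cells. The median large clonotype had 9 cells in replicates 1 and 2 and 8 in replicate 3. Just inside the threshold lay 58 clonotypes of 5 cells, and just outside it 74 clonotypes of 4 cells. The threshold means a different share of the cells in each replicate, 0.363%, 0.162% and 0.304%, because the replicates hold different numbers of cells. In tdTomato-GFP- cells 2327 cells belonged to large clonotypes and 3130 were single.

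Some receptors crossed replicates or size classes. A pair of junctions was found in more than 1 replicate for 24 pairs with 1009 cells, of which 31 cells lay outside the replicate that held most of the pair. In those 31 cells the main hashtag had a median share of 94.8% of hashtag UMIs, against 91.3% in the same pairs' main replicate and 95.2% over all cells with both chains. Of the single cells, 20 (11 in replicate 2 and 9 in replicate 3) had the pair of a large clonotype of another replicate. Single cells that shared 1 junction with a larger clonotype of their replicate made up 3.77%, 18.7% and 13.2% of single cells in replicates 1 to 3. Leaving out each of these sets kept the counts of genes that differed close to those given further on, at 399 higher and 482 lower without single cells that share a junction, 338 and 488 without single cells paired to another replicate, and 330 and 442 without pairs found in several replicates. Of the large clonotypes 3, 7 and 7 (5.56%, 5.0% and 9.09%) also occurred among tdTomato-GFP- cells of the same replicate number. Of the single ones 11, 8 and 15 did (10.4%, 1.81% and 4.20%).

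**Figure D1:**
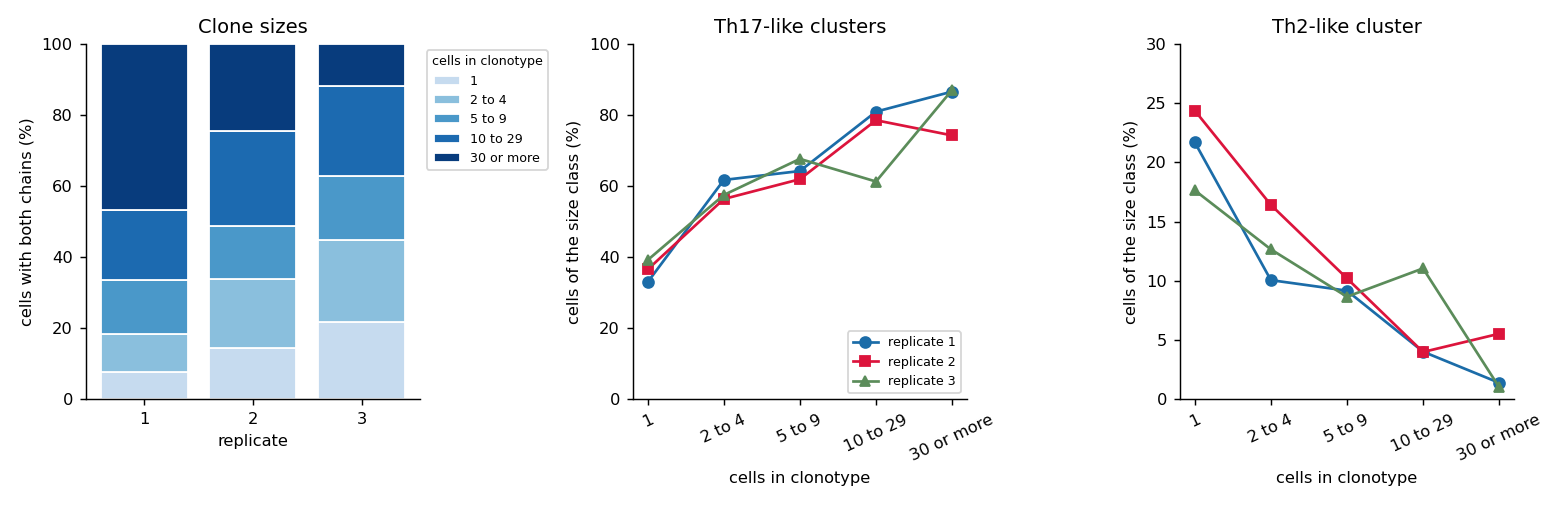
Share of tdTomato+GFP+ cells with both chains by clone size in each replicate (left, stacked bars, percent), and share of each size class in the Th17-like clusters (middle) and in the Th2-like cluster (right), 1 line per replicate. The Th17-like share was 33.0% to 39.2% in single cells and 74.3% to 87.0% in clonotypes of 30 or more cells.

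Th17-like cells made up more of the large clones than of the single cells in every replicate. The authors' clusters were named from marker genes, Th17-like for 5 clusters led by Il17a, Ccl20 and Il17f. The Th17-like share of large-clone cells was 81.1%, 73.2% and 68.9% in replicates 1 to 3 (74.4% ± 6.20, SD, n = 3), and that of single cells was 33.0%, 36.6% and 39.2% (36.3% ± 3.11). The Th2-like cluster, led by Ccl1, Il13 and Il4, went the other way, with 5.86% ± 2.33 of large-clone and 21.2% ± 3.39 of single cells. Cluster 7, with the Tfh-like genes Cxcr5 and Izumo1r, held 22 large-clone cells (0.535% ± 0.158) and 46 single cells (6.20% ± 2.90). The naive or central memory-like cluster held 33 single cells and 0 of 4074 large-clone cells, which allows a share of up to 0.0736% (counting error only, with cells of a clonotype taken as separate draws). Th1-like cells, a cluster with Ifng but also the granzyme gene Gzmk, made up 6.07% ± 1.03 of large-clone and 10.1% ± 1.34 of single cells, and cycling cells 2.56% ± 0.670 and 3.45% ± 0.451. Cluster 5, which was left without a name, had all 7 Treg markers and 5 of 6 Th2 markers raised against the other clusters. It held 1.59% ± 0.905 of large-clone and 2.28% ± 0.412 of single cells. The clusters were built from the same counts, so these shares are a description with no test.

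The Th17-like share was higher in larger clonotypes, though not in every replicate at every step. In replicate 1 it was 33.0% in single cells, 61.7% in clonotypes of 2 to 4 cells, 64.3% at 5 to 9, 81.0% at 10 to 29 and 86.6% at 30 or more. In replicate 2 the shares were 36.6%, 56.4%, 62.0%, 78.5% and 74.3% in the same order, and in replicate 3 they were 39.2%, 57.5%, 67.7%, 61.3% and 87.0%. The step from 1 cell to 2 to 4 cells was thus upward in all 3 replicates, while the step to 30 or more cells was downward in replicate 2. Next to the threshold, clonotypes of 4 cells had Th17-like shares of 68.8%, 71.3% and 60.2%, and clonotypes of 5 cells 60.0%, 56.5% and 69.5%.

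Individual clonotypes differed widely around these means. Of the 271 large clonotypes, 235 had more cells in the Th17-like clusters than in any other class, 21 in the Th2-like cluster, 6 in the Th1-like cluster and 4 in cluster 4. The median clonotype was 80.0% Th17-like, 32 clonotypes were Th17-like in all their cells, and 21 had no Th17-like cell. Among the 24 clonotypes of 30 or more cells the Th17-like share ran from 10.5% to 94.1% with a median of 84.6%. The clonotype of 143 cells was 92.3% Th17-like (Wilson 95% interval 86.8% to 95.7%, which covers counting error only), with 18463 Il17a CPM. At the other end, the 38 cells of the TRAV7-5 and TRBV15 clonotype printed above were 10.5% Th17-like (4.17% to 24.1%) and 36.8% Th2-like, with 1128 Il17a and 1343 Il4 CPM. The 26-cell clonotype of replicate 3 was 53.8% Th2-like, with 1389 Il4 CPM. CPM here are UMIs scaled to all UMIs of the clonotype.

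Foxp3 UMIs were found in nearly all of the larger clonotypes. Of 49 clonotypes with 20 or more cells 47 had a Foxp3 UMI, at a median of 138 CPM (16.3 to 250.3). The other 2 had none. In replicate 2 a clonotype of 41 cells (TRAV10, TRBV26) had 0 Foxp3 UMIs among 187022, which allows up to 16.0 CPM, and 1064 Ifng CPM. In replicate 3 a clonotype of 23 cells (TRAV7D-2, TRBV13-2) had 0 among 105234, which allows up to 28.5 CPM, was 39.1% cytotoxic-like and had no Th17-like cell (Wilson 95% interval up to 14.3%). The first of them was 39.0% Th17-like (25.7% to 54.3%).

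**Figure D2:**
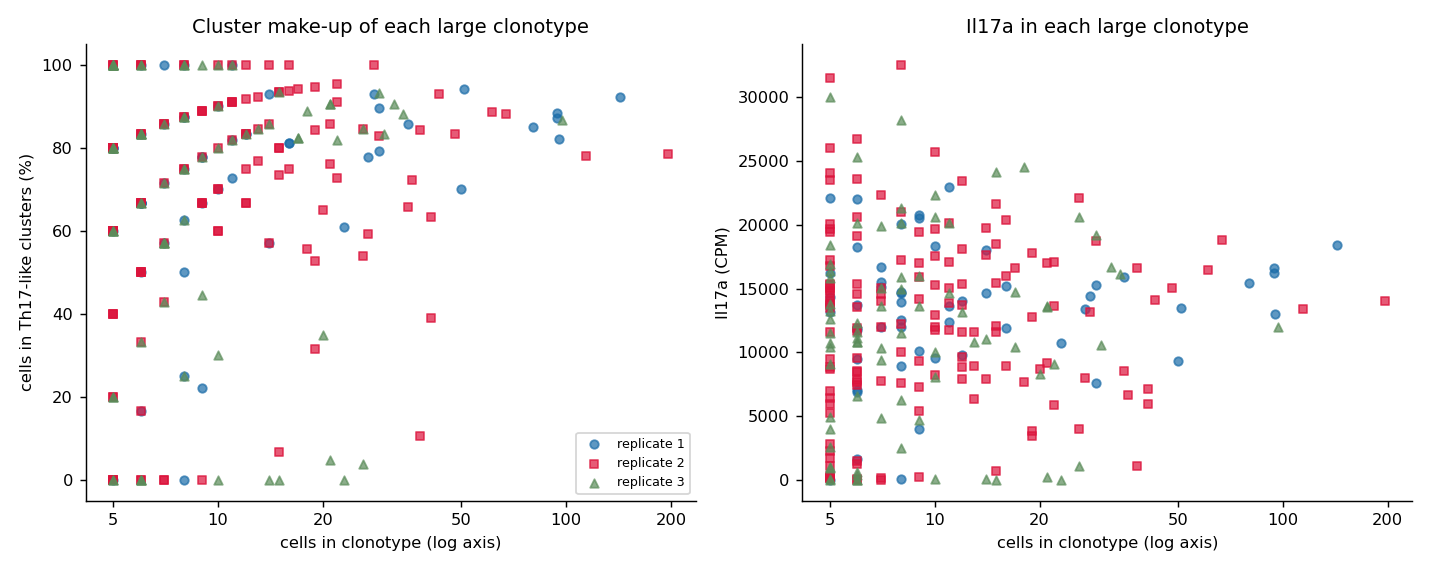
Each point is 1 of the 271 large clonotypes, with its number of cells on a log axis and its share of cells in the Th17-like clusters (left, percent) or its Il17a level (right, CPM), coloured by replicate. Most clonotypes lie around the median share of 80.0%, and 21 have a share of 0.

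Receptor features other than size were compared next. The mean junction length of large and single clonotypes was 41.0 and 41.0 bases for alpha (exact paired sign-flip test, two-sided, p = 1.0) and 41.7 and 41.2 bases for beta (exact p = 0.5); 3 pairs cannot give a p below 0.25. Second alpha junctions were seen in 14.1%, 6.46% and 6.05% of large-clone cells and 14.2%, 18.3% and 17.1% of single cells. Second beta junctions were seen in 0.0891%, 2.89% and 1.76% of large-clone and 2.83%, 9.93% and 8.96% of single cells, lower in large clones in all 3 replicates (exact p = 0.25). Without single cells that share a junction with a larger clonotype that difference went from -5.66 to -1.69 percentage points. Counting each clonotype once, no V segment passed (edgeR quasi-likelihood test with replicate as a block, 0 of 13 alpha and 0 of 16 beta segments, 1 of each at an unadjusted p below 0.05). The closest were TRAV4-4-DV10, used by 3.70%, 7.14% and 9.09% of large and 1.89%, 2.26% and 2.80% of single clonotypes (log2 fold change 1.57, SE 0.54, edgeR adjusted p = 0.101), and TRBV15 (1.07, SE 0.44, adjusted p = 0.316).

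Depth differed between the classes. Large-clone cells had a median of 3771.5, 3584 and 3398 UMIs and single cells 4010.5, 4228 and 4238 (exact paired p = 0.25), and the summed counts ran from 3604917 to 8141800 UMIs for large and from 495737 to 2124177 for single cells. Single cells of replicate 1 are thus the shallowest sum, from 106 cells. Both classes carried the CD4 T cell transcripts Cd3e (1508 to 1628 CPM in large clones, 1281 to 1349 in single cells) and Cd4 (499.5 to 536 and 326 to 398), and the CD8 gene Cd8b1 stood at 2.17 to 7.60 CPM. B and plasma cell markers (16 of 16 genes in the files) summed to 1117, 265 and 1129 CPM in large clones and to 5277, 232 and 193 CPM in single cells, with the joining chain gene Jchain at 3570 CPM in the single cells of replicate 1. None of the 9 tested passed. Myeloid markers summed to 648 to 743 and 622 to 1142 CPM and epithelial markers to 11.9 to 21.1 and 11.8 to 16.7 CPM. Markers of NK cells and ILC summed to 1081 to 1401 CPM in large clones and 948 to 1118 CPM in single cells (0 of 6 tested passed), those of innate-like T cells to 263 to 312 and 216 to 236 CPM (1 of 5, Slamf1), and those of stromal and endothelial cells to 3554 to 4012 and 2441 to 2912 CPM (1 of 2, Vim, which T cells also express). The part of these transcripts in the results was not tested.

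Gene by gene, large clones and single cells differed at 808 of 9731 genes. Counts were summed per replicate and class and tested with edgeR, with replicate as a block and Benjamini-Hochberg adjustment at 0.05; 355 genes were higher in large clones (3.65% of genes tested) and 453 lower (4.66%). Levels are CPM scaled to the TMM-adjusted total, and log2 fold changes are large clones over single cells. These sums hold all clusters, so they carry the different cluster make-up just described. When each cluster gave as many large-clone as single cells, 24 of 8716 genes tested passed as higher and 101 as lower. Of the 808 calls 117 passed again, and 746 of the 777 that could be tested had the same direction. With 1 cell per clonotype 94 were higher and 174 lower, without the replicate block 198 and 316, without replicate 2 73 and 161, and without replicate 3 188 and 277. Scaling to plain totals in place of TMM gave 543 higher and 361 lower, so 60.1% of calls were higher against 43.9%.

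Th17 genes were higher in the large clones. Of 20 genes of a Th17 list 10 rose and none fell (median log2 fold change 0.40, against 0.005 over all genes), including Il17f, the interleukin 1 receptor gene Il1r1 (0.62), the aryl hydrocarbon receptor gene Ahr (0.43), Batf (0.43) and Maf (0.21). Il17a (GRCm38 chromosome 1, 20730905 to 20734496) was at 14078, 12383 and 10714 CPM in large clones and 5390, 5967 and 6295 CPM in single cells. The groups did not overlap, but the log2 fold change of 1.07 (SE 0.17) did not pass in edgeR (adjusted p = 0.159). It passed in 6 of 21 alternatives, and the fold was 0.06 at its lowest and 1.22 at its highest. Ccl20, a chemokine that draws Ccr6-bearing cells, was at 2735, 2371 and 2674 against 999.8, 1218 and 1495 CPM (1.08, SE 0.17, adjusted p = 0.129) and passed in 11 of 21. Il17f rose from 1272, 985 and 1042 to 1919, 1344 and 1263 CPM (0.44, SE 0.06, edgeR adjusted p = 1.39e-05), with an overlap between the classes across replicates, and this call was lost in 4 of 21 alternatives. With equal cells per cluster Il17f had a log2 fold change of -0.34 and no Th17 gene passed (median 0.17). Over all genes 24 of 8716 passed as higher there, and at that share a list of 20 genes would hold few or none.

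Genes of naive and central memory cells were lower in the large clones. Of 13 tested 11 fell and none rose (median -1.54). Tcf7, a factor of naive and stem-like memory T cells, stood at 75.8, 80.8 and 84.2 CPM in large clones and 320.0, 194 and 234 CPM in single cells (GRCm38 chromosome 11, 52252371 to 52283014; log2 fold change -1.58, SE 0.15, edgeR adjusted p = 0.00129). All 3 large-clone sums lay far below the single-cell sums. Lef1, its partner factor, was at 5.41, 9.13 and 10.9 against 35.6, 40.3 and 48.5 CPM (-2.24, SE 0.19, adjusted p = 4.01e-08). S1pr1, the receptor for exit from tissue, was at 20.0, 16.2 and 16.3 against 96.2, 51.9 and 59.6 CPM (-1.89, SE 0.15, adjusted p = 1.93e-08). These 3 falls passed in each of 21 alternatives. Klf2, which drives S1pr1, had a fold of -0.72, from 573, 681 and 637 to 388, 364 and 401 CPM, and the interleukin 7 receptor gene Il7r one of -0.94. Ccr7 fell too (-1.63, SE 0.20, adjusted p = 0.0244), a call lost in 7 of 21 alternatives. With equal cells per cluster 5 of 13 genes still fell (median -0.59), against 101 of 8716 over all genes, but Klf2 (-0.27) did not pass.

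Tfh genes fell together with these. Of 13 tested 7 fell, among them the follicle homing receptor Cxcr5 (-3.33), the inhibitory receptor Btla (-1.59) and the adaptor gene Sh2d1a (-1.10), and 1, the ligand gene Tnfsf8 (0.32), rose (median -1.24). Cxcr5 missed the level or direction rule set for the largest falls, and had 4 UMIs in the single cells of replicate 1. Among the genes called here, Tcf7, Izumo1r, Btla, Cxcr5 and Tnfsf8 stand in another list too. The Tfh-like cluster's share was lower too, 0.535% against 6.20% of cells, and its part in these falls was not tested. With equal cells per cluster, which uses fewer cells, 1 of 11 fell, against 101 of 8716 over all genes. Th2 genes gave 2 falls of 10, the chemokine receptors Ccr8 (-0.63) and Ccr4 (-0.43). Il4 stood at 8.95, 150 and 237 CPM in large clones and 69.0, 494 and 435 CPM in single cells, and its log2 fold change of -1.51 (SE 0.47) did not pass (edgeR adjusted p = 0.343). The factor Gata3 (-0.90) and Il13 (-0.26) did not pass either.

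Of 12 inhibitory receptor genes tested 6 rose and 2 fell (median 0.35). Lag3, an inhibitory receptor that binds MHC class II, was at 633, 668 and 535 CPM in large clones and 264, 301 and 334 CPM in single cells (GRCm38 chromosome 6, 124904361 to 124911705; log2 fold change 1.02, SE 0.12, edgeR adjusted p = 0.00549). Every large-clone sum exceeded every single-cell sum. Havcr2, which encodes Tim-3, rose by 1.17 (139, 110 and 98.3 against 39.7, 55.8 and 46.7 CPM), and Ctla4, which competes for costimulatory ligands, from 2165, 2120 and 2032 to 3430, 3200 and 2665 CPM (0.55, SE 0.05, adjusted p = 1.46e-07). Entpd1, Tox and Tigit rose by 0.54, 0.41 and 0.30, while Btla and Cd200r1 (-0.58) fell. Ctla4, Entpd1 and Tigit are counted in the Treg list as well, and Btla in the Tfh list. Pdcd1, encoding PD-1, had 0.55 (SE 0.31) and did not pass (adjusted p = 0.518). The calls of Lag3 and Ctla4 held in each of 21 alternatives.

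Treg genes moved in both directions, 9 up and 4 down of 19 (median 0.08). Il10, an anti-inflammatory cytokine gene, was at 136, 113 and 132 CPM in large clones and 50.2, 68.4 and 81.8 CPM in single cells (0.85, SE 0.12, edgeR adjusted p = 5.33e-05), with no overlap. Foxp3 itself, whose inserted allele defines the gate, was at 151, 125 and 123 against 92.0, 106 and 97.0 CPM (0.39, SE 0.10, adjusted p = 0.0170; chromosome X, 7573644 to 7595245), and this call was lost in 8 of 21 alternatives. Ikzf2, which encodes Helios, a factor of thymic Treg cells, fell from 83.7, 67.4 and 62.5 to 23.9, 39.4 and 35.0 CPM (-1.001, SE 0.17, adjusted p = 0.00207). The costimulatory receptors Tnfrsf4 (-0.70) and Tnfrsf18 (-0.47) and Izumo1r (-1.24) fell too. The calls of Il10 and Ikzf2 were lost with 1 cell per clonotype and with equal cells per cluster, and in these their folds came to 0.32 and -0.42 at the nearest to 0. Il2ra had 0.08 and did not pass.

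**Figure D3:**
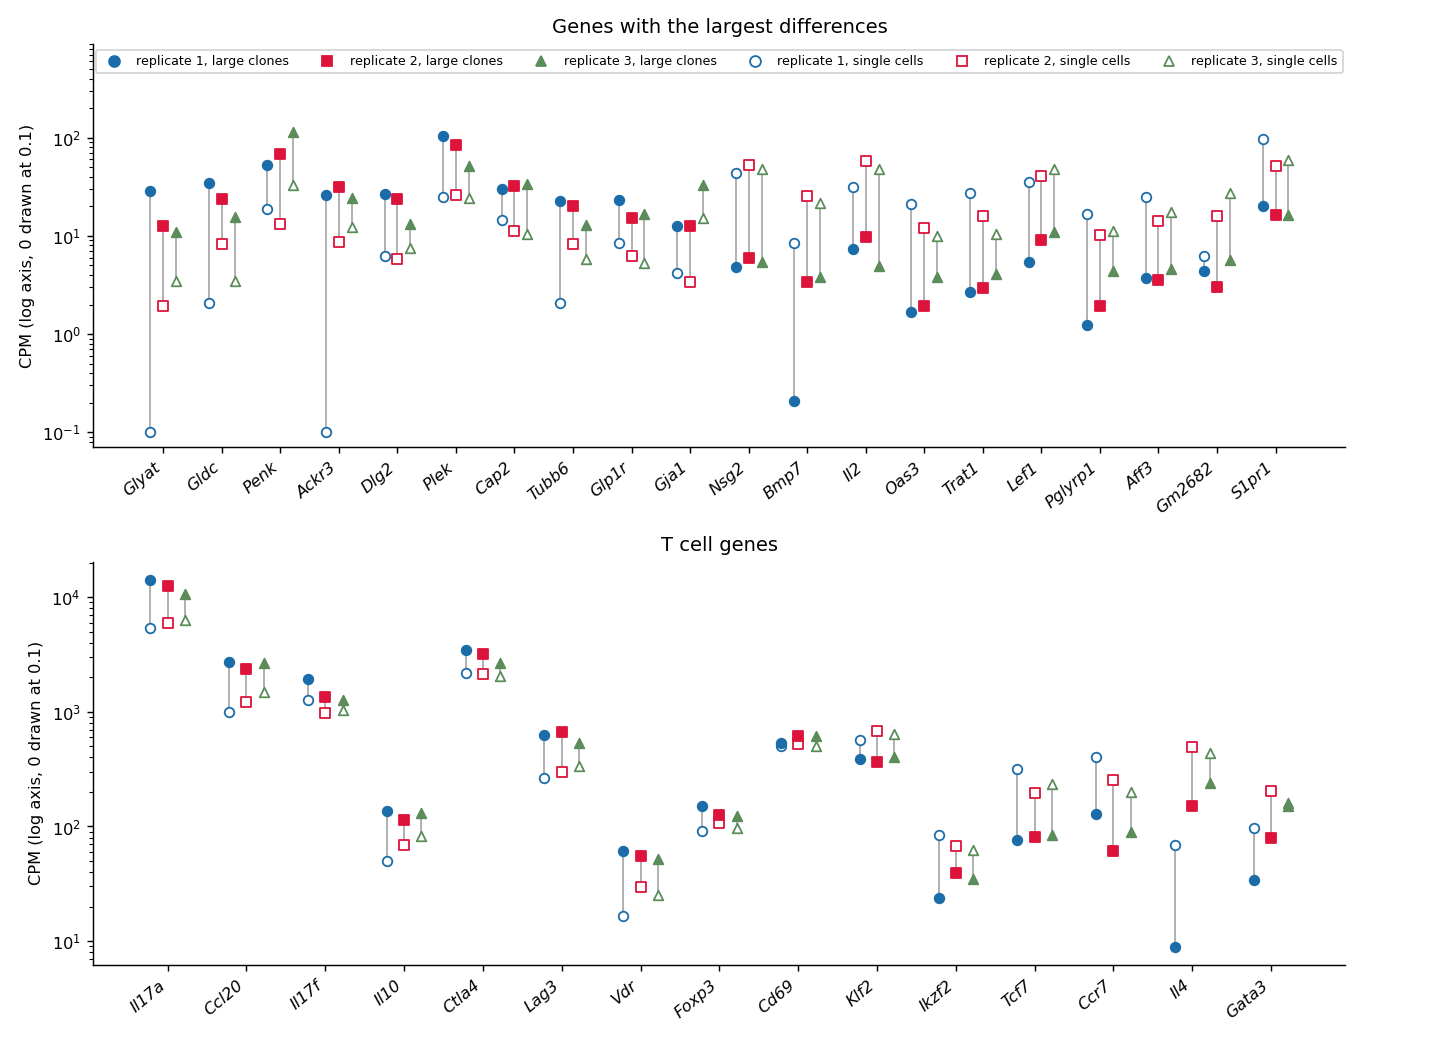
Levels (CPM, log axis, zeros drawn at 0.1) in the large-clone sum (filled) and the single-cell sum (open) of each replicate, joined by a line, for the 20 genes with the largest differences (top) and for T cell genes (bottom). For Nsg2, Lef1 and S1pr1 all filled points lie below all open points, and for Plek and Lag3 above.

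The 10 largest rises held no gene of the Th17, Th1, Th2 or Tfh lists. These lists hold only 20, 15, 10 and 13 of the 9731 genes tested, so their absence among 10 genes says little. Plek was among the 10 leading genes of cluster 12, a Th17-like cluster. Penk led the genes of cluster 5, the cluster with all 7 Treg markers raised, which held 1.59% of large-clone and 2.28% of single cells. Glyat, an enzyme that joins glycine to acyl groups, was at 28.3, 12.7 and 10.9 CPM in large clones and 0, 1.94 and 3.51 CPM in single cells, with 0, 4 and 6 UMIs there (log2 fold change 2.55, SE 0.41, edgeR adjusted p = 0.000279). Gldc, a subunit of the glycine cleavage system, rose by 1.97, and Penk, the precursor of the enkephalin peptides, by 1.96 (52.7, 67.5 and 114 against 18.8, 13.1 and 32.7 CPM). Ackr3, a scavenging chemokine receptor, rose by 1.65, the scaffold gene Dlg2 by 1.59, the actin regulator Cap2 by 1.50, the tubulin gene Tubb6 by 1.45, the incretin receptor gene Glp1r by 1.44 and the connexin gene Gja1 by 1.38. Plek, which encodes pleckstrin, a substrate of protein kinase C, was at 103, 84.1 and 51.9 against 25.1, 26.2 and 24.5 CPM (1.53, SE 0.15, edgeR adjusted p = 2.29e-07). Vdr, the vitamin D receptor gene, rose from 16.7, 29.6 and 25.1 to 61.6, 54.8 and 52.4 CPM (1.08, SE 0.15, adjusted p = 4.33e-05). The calls of Plek and Vdr held in each of 21 alternatives. With equal cells per cluster the folds of Cap2 (0.49), Glp1r (0.25) and Gja1 (0.40) were lower and did not pass, and neither did Gldc, Ackr3 and Tubb6. Without replicate 2 Glyat, Ackr3, Dlg2, Tubb6 and Gja1 did not pass, and without the replicate block Glyat, Gldc, Penk and Gja1 did not. Penk did not pass with large set at 10 or more cells or with 1 cell per clonotype either.

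The largest falls included genes of resting and of recently activated T cells. Nsg2, a vesicle protein gene that marked the Tfh-like and naive-like clusters, was at 4.79, 5.96 and 5.43 CPM in large clones and 43.9, 52.4 and 48.5 CPM in single cells (GRCm38 chromosome 11, 32000463 to 32059202; log2 fold change -3.15, SE 0.19, edgeR adjusted p = 1.23e-09). Il2, the T cell growth factor gene, fell from 31.4, 57.7 and 48.5 to 7.29, 9.73 and 4.89 CPM (-2.67, SE 0.20, adjusted p = 1.01e-08). It is among the 10 leading genes of the Th2-like cluster. Its call was lost with 1 cell per clonotype, with equal cells per cluster and without clonotypes found in several replicates. The growth factor gene Bmp7 (-2.87), the interferon-induced Oas3 (-2.43), the receptor-associated Trat1 (-2.34), the peptidoglycan receptor gene Pglyrp1 (-2.24), Aff3 (-2.15) and Gm2682 (-2.05) fell as well. Of these, Aff3 went to -0.48 with equal cells per cluster and did not pass, Oas3, Trat1, Pglyrp1 and Gm2682 did not pass there or without replicate 2, Gm2682 also not without replicate 3, and Bmp7 not without the replicate block. Other early genes of receptor signalling split, with 8 falls, such as Myc (-1.41), Nr4a2 (-1.61) and Cd40lg (-0.77), and 4 rises, such as Tnfrsf9 (0.51) and Nfatc1 (0.39), of 21. Nr4a1 was at 1046, 985 and 813 against 830.3, 1085 and 899.8 CPM and did not pass (0.01).

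Further lists are set beside the share of calls over all genes tested, 3.65% higher and 4.66% lower. Of 19 interferon response genes 6 fell, such as Usp18 (-3.20), Ifit1 (-1.34) and Bst2 (-0.39), and none rose (median -0.44). Usp18 missed the level or direction rule set for the largest falls, and had 3 UMIs in the single cells of replicate 1. Of 15 Th1 genes 4 rose, among them the receptor genes Il12rb2 (0.88), Il12rb1 (0.46) and Il18rap (0.44); Ifng (0.32) and Tbx21 (0.17) did not pass. Among cytokine receptors 7 rose and 4 fell of 22, the falls including Il6ra (-1.59) and Il6st (-1.30), the chains of the interleukin 6 receptor. Chemokine receptors gave 4 rises, led by Ccr1 (1.03), and 4 falls of 12, and residency and egress genes 6 rises, such as Prdm1 (0.76) and Rgs1 (0.59), and 4 falls of 21. Apoptosis regulators fell in 4 of 22 cases (Bid, Bcl2, Bcl2l11 and Bik), and dissociation stress genes in 8 of 20 (Atf3 -1.29) with 3 rises; cluster 8, with Dcn and heat shock genes at the top of its list, held 2.01% of large-clone and 5.14% of single cells, and its part was not tested. Of 30 cell cycle genes 1 fell (Cenpa, -0.46); Mki67 had -0.03. Calls went both ways among glycolysis (2 up and 2 down of 17), oxidative phosphorylation (1 and 1 of 27) and cytotoxic genes (1 and 2 of 10). The same held for effector cytokine (5 and 3 of 22) and interleukin 2 response genes (2 and 4 of 16). Of 13 mitochondrial genes 5 fell slightly (median -0.20). Gamma delta T cell markers summed to 325, 327 and 225 CPM in large clones and 129, 157 and 153 CPM in single cells, with 1 call of 2 outside the receptor genes, the kinase gene Blk (1.15). The gamma chain genes Tcrg-C1 (0.84, edgeR adjusted p = 0.0275) and Tcrg-C2 (0.96, adjusted p = 0.0211) were higher in the fit and left out of the calls as receptor genes. The delta chain gene Trdc, which defines these cells, had 0, 27 and 0 UMIs in large clones and 0, 3 and 3 UMIs in single cells.

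**Figure D4:**
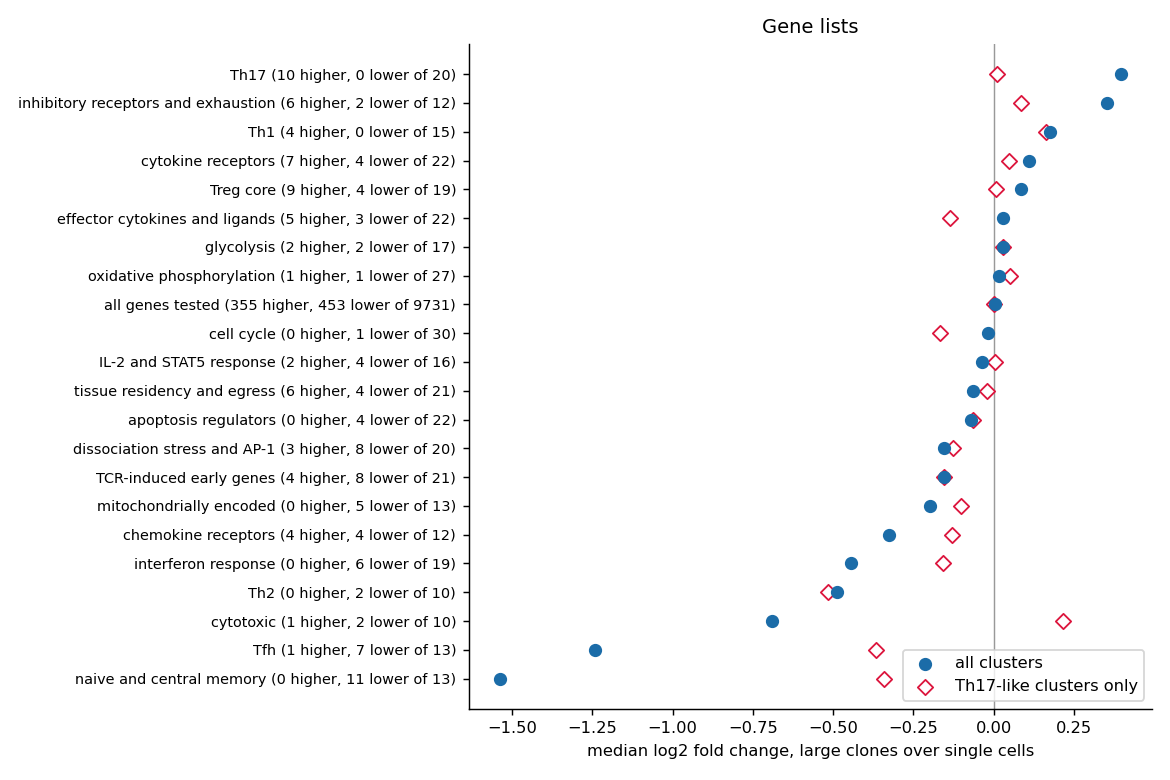
Median log2 fold change of large clones over single cells for each gene list other than markers of other cell types, over all clusters (filled) and within the Th17-like clusters only (open diamonds), with the number of genes called in each direction over all clusters. The naive and central memory list has the lowest median (-1.54) and the Th17 list the highest (0.40).

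Ribosomal protein genes, a group chosen after their values were seen, were lower as a body. Of 83 tested 81 fell and 1, Rps27l (0.28), rose (median -0.48). Rps19, a protein of the small subunit, was at 1378, 1559 and 1624 CPM in large clones and 2660.5, 2729 and 2673 CPM in single cells (-0.82, SE 0.05, edgeR adjusted p = 1.23e-09). The share of all UMIs from 84 such genes was 14.8%, 15.4% and 16.1% in large clones, 17.3%, 18.5% and 18.4% in clonotypes of 2 to 4 cells, and 20.7%, 21.0% and 21.0% in single cells. The 3 classes did not overlap. Within the Th17-like clusters the shares were closer, 13.6%, 13.5% and 13.5% in large clones and 15.0%, 15.2% and 15.3% in single cells, again with no overlap.

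Within the Th17-like clusters much less differed. Over their 3032 large-clone and 337 single cells, 20 genes rose (0.231% of 8641 tested) and 67 fell (0.775%), with 608 at an unadjusted p below 0.05. Il17a was at 17893, 17192 and 16570 CPM in large clones and 14736, 15445 and 16386 CPM in single cells, close to the threshold (log2 fold change 0.15, SE 0.04, edgeR adjusted p = 0.0527). Il17f was lower in the large clones here, at 2405, 1847 and 1920 against 4001, 2397 and 2571 CPM (-0.49, SE 0.05, adjusted p = 1.14e-06), and Ccl20 slightly higher (0.17, adjusted p = 0.0457). Of the 20 Th17 genes 3 rose (Ccl20, Tmem176a and Tmem176b) and 1 fell (median 0.01). Foxp3 (-0.03) and Il10 (0.18) did not pass.

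Inside the Th17-like clusters 2 of 12 naive and central memory genes fell and none rose, against 0.775% of all genes that fell. Of 11 inhibitory receptor genes 1 rose and none fell, against 0.231% of all genes that rose. Lef1, S1pr1, Ccr7 and Ctla4 did not pass. Tcf7 fell from 67.4, 75.5 and 96.4 to 50.6, 51.2 and 46.5 CPM (-0.74, SE 0.17, edgeR adjusted p = 0.00814), Klf2 also fell (-0.37), and Lag3 rose from 472, 588 and 627 to 741, 802 and 750 CPM (0.40, SE 0.07, adjusted p = 7.13e-05). The largest rises were those of the mevalonate pathway gene Pmvk (1.86), Ackr3 (1.12), the receptor subunit gene Ramp1 (0.94), Vax2 (0.86) and Plek (0.78), and the largest falls with the same direction in all 3 replicates those of Tespa1 (-1.39), an adaptor of receptor signalling, Map1lc3a (-0.85), Lamp1 (-0.84), Rab27a (-0.83) and Tcf7. Il4 passed here too (-0.77, SE 0.14, edgeR adjusted p = 0.000384), at 7.32, 86.2 and 124 against 0, 151 and 211 CPM, with the opposite direction in replicate 1. The Tcf7 call was lost in 7 of 9 alternatives, among them leaving out any 1 replicate, and its fold went to -0.09 at the nearest to 0. Each of the other 9 was lost in at least 4 alternatives, omitting the replicate block and using DESeq2 among them. Receptor-induced genes fell in 3 of 19 cases (Cd40lg -0.51, Cd5 -0.41, Nr4a1 -0.26) and rose in none, and 39 of 83 ribosomal protein genes fell (median -0.18). These calls depended on the setting. Without the largest clonotype of each replicate 16 genes rose and 69 fell, and 75 of the 87 calls passed again, while without the replicate block 0 rose and 1 fell, with DESeq2 0 and 2, with 1 cell per clonotype 1 and 0, and with equal cells in each of the 5 clusters 0 and 0. Leaving out replicate 1, 2 or 3 gave 12 and 36, 0 and 4, and 10 and 14. The 5 clusters were themselves unequal, cluster 2 holding 21.5%, 26.5% and 26.8% of Th17-like large-clone cells and 34.3%, 34.0% and 43.6% of Th17-like single cells.

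Clonotypes of 2 to 4 cells, which the rule leaves out, were set against the same single cells. They rose at 58 genes (0.652% of 8892 tested) and fell at 147 (1.65%). Both comparisons share the single cells, so their folds are given side by side and not related. For Nsg2 the log2 fold change was -1.46 here and -3.15 in large clones, for Lef1 -1.56 and -2.24, for Tcf7 -0.81 and -1.58, for Ccr7 -1.31 and -1.63, and for S1pr1 -1.01 and -1.89. Lag3 rose by 0.55 and 1.02, Plek by 0.83 and 1.53, Ctla4 by 0.39 and 0.55, and Il10 by 0.72 and 0.85. The other large rises were those of Pcnx (1.10), Cap2 (0.97), the septin gene Sept5 (0.92) and Plekhf1 (0.87), and other large falls those of the histone gene Hist1h2ap (-1.84) and Oas3 (-1.53). Of 13 genes of naive and central memory cells 9 fell (median -0.70) and Th17 genes rose in 6 of 20 (0.32). With equal cells per cluster 3 genes rose and 2 fell, and 1 of the 205 calls was kept. Without the replicate block 28 rose and 92 fell, and leaving out replicate 1, 2 or 3 gave 122 and 204, 18 and 38, and 23 and 56. Pcnx, Cap2, Sept5, Plekhf1, Plek and Oas3 did not pass without replicate 2 or without replicate 3.

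Levels by clone size gave a finer view of these genes. Il17a was at 5198, 5790 and 6189 CPM in single cells, 10959, 8873 and 9124 CPM in clonotypes of 2 to 4 cells and 15400, 12554 and 13639 CPM in those of 30 or more. Lag3 went from 254, 292 and 329 CPM in single cells to 340, 439 and 445 CPM at 5 to 9 cells and 710.0, 746 and 865 CPM at 30 or more. Nsg2 was at 42.4, 50.8 and 47.7 CPM in single cells and at 1.85, 4.14 and 3.01 CPM at 30 or more, from 5, 13 and 2 UMIs. At 4 cells, just outside the threshold, Lag3 was at 675, 715 and 505 CPM and at 5 cells, just inside, at 318, 405 and 359 CPM, so the order by size did not hold at every step. These levels are scaled to all UMIs of a size class.

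**Figure D5:**
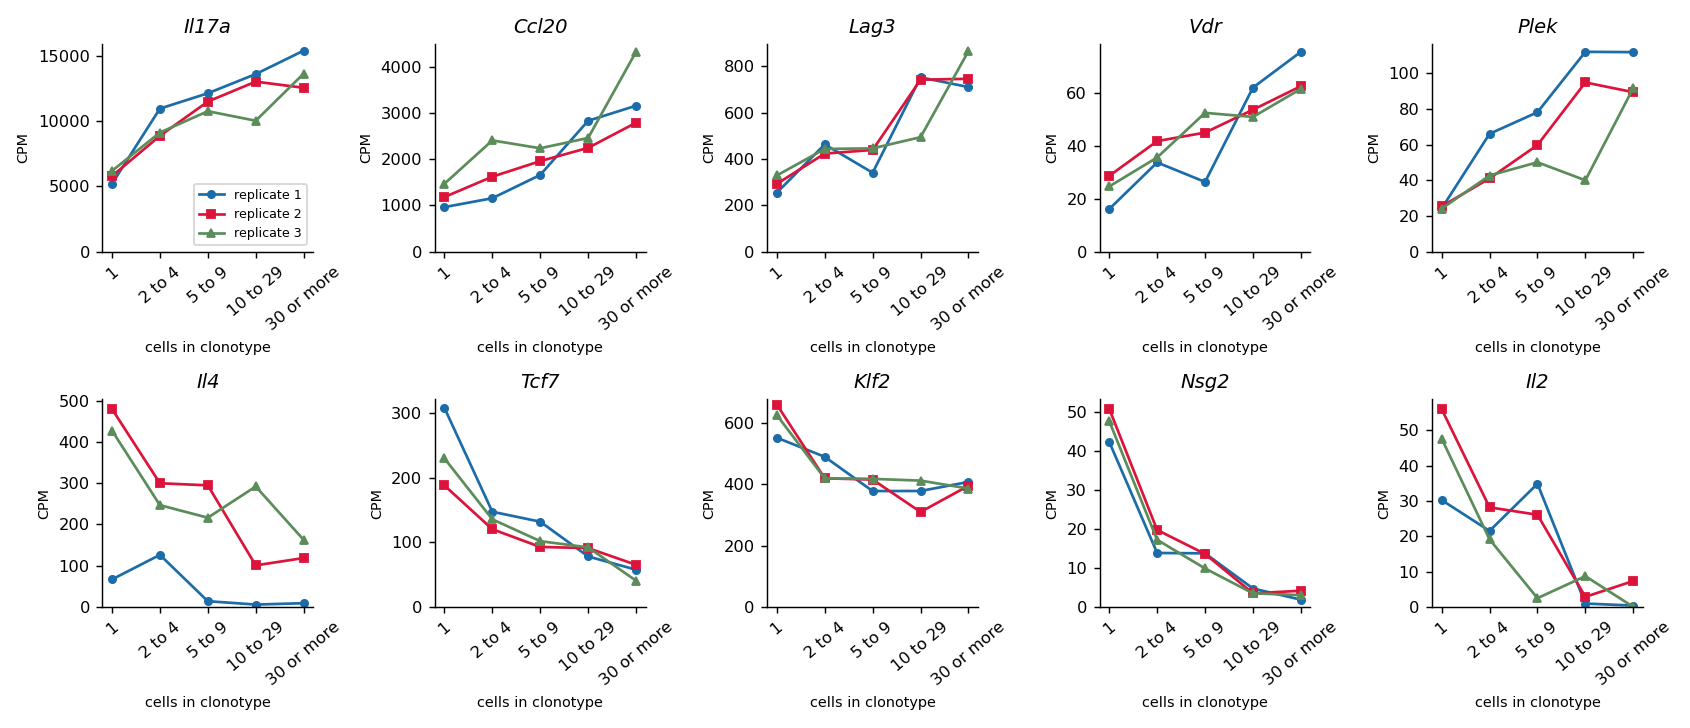
Level (CPM) of 10 genes by the number of cells in the clonotype, 1 line per replicate, in tdTomato+GFP+ cells. Il17a, Lag3 and Plek are lowest in single cells in all 3 replicates, and Tcf7 and Nsg2 highest.

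The same contrast was made in tdTomato-GFP- cells and the difference of the clone size effect tested. It was more positive in tdTomato+GFP+ cells at 47 genes (0.452% of 10395 tested) and more negative at 106 (1.02%). Gate and lane cannot be told apart, but each size contrast lies within a lane. Without the replicate block the counts were 6 and 30, and without replicate 1, 2 or 3 they were 13 and 53, 23 and 56, and 46 and 107. Lef1 had a log2 fold change of -2.24 among tdTomato+GFP+ cells and also -2.24 in the other gate (difference 0.00, SE 0.41, edgeR adjusted p = 1.0), and S1pr1 -1.89 and -2.45 (difference 0.56, SE 0.17, adjusted p = 0.129). Nsg2 fell more in tdTomato+GFP+ cells (-3.15 against -1.78; difference -1.36, SE 0.19, adjusted p = 0.000582). For Ifng the fold was 0.32 against 1.95 (difference -1.63, SE 0.23, adjusted p = 0.0350) and for the interleukin 23 receptor gene Il23r 0.36 against 1.40 (difference -1.02, SE 0.25, adjusted p = 0.0425). For Il17a the folds were 1.07 and 2.50, but the difference of -1.43 (SE 0.39) did not pass (adjusted p = 0.295), nor did that of Lag3 (0.37, SE 0.56, adjusted p = 0.916). Of the 20 Th17 genes 6 had a lower clone size effect in tdTomato+GFP+ cells and none a higher one (median -0.71, against -0.007 over all genes).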

How the data were processed

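T helper cells from the colon's lamina propria were sorted by both reporters, and 3 hashed replicates per gate were pooled on 1 lane each, per the labels' protocols. The authors deposited a table of UMI counts for 23595 cells and 15473 genes, with cluster numbers, a deposited replicate call whose main hashtag fraction was at least 0.8, and receptor calls for 17878 barcodes, of which 17863 were in the cell table. Hashtag counts (43.8% of UMIs) were left out, as were 4721 cells without a replicate, and 174 barcodes occurred in both lanes. Both 3' v3 and 5' v2 chemistry are named, without saying which was used. The submitters' processing notes name Cell Ranger, mm10 (GRCm38) and Scanpy 1.7.2. How doublets were treated is not given in the sources used here, and no doublet caller was run; cells with second chains were left out as an alternative. UMI counts were summed per replicate and clone size class and tested with edgeR 4.0.16 (R 4.3.3, limma 3.58.1; robust quasi-likelihood, TMM, filterByExpr with a minimum count of 10), with replicate as a block because both sums of a pair come from the same hashed replicate and lane, and Benjamini-Hochberg adjustment at 0.05. DESeq2 1.42.0 was an alternative. Receptor segment genes stayed in the fit and were left out of calls. V segments, 1 count per clonotype, were tested with a minimum count of 3, since 10 left too few. Single values were compared by exact paired sign-flip tests, two-sided. The scripts were tested on simulated data. Named genes were the 10 (main) or 5 (other comparisons) largest differences in each direction among genes that passed, with a mean of at least 10 CPM in 1 of the size classes and the same direction in all 3 replicates, plus a list of T cell genes whatever their result. The members, lists and tests were chosen with earlier results of these data known. Coordinates are GRCm38. A few genes of the lists are counted but not reported here by name.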

Additional observations from a re-analysis of the deposited data

Results flagged for a closer look

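The clone size effect (log2 of large clones over single cells) differed between the gates, by the interaction in edgeR, for these named genes, given as tdTomato+GFP+ minus tdTomato-GFP-. Among the T cell genes the difference was -1.74 for Il2, -1.63 for Ifng, -1.36 for Nsg2 and -1.02 for Il23r, so Il2 and Nsg2 fell further in tdTomato+GFP+ clones. The chemokine gene Ccl3 had -2.54 and the apolipoprotein gene Apol7b -2.54, and neither passed when any 1 of the replicates was left out. The interferon-induced Oas3 had -2.28, not passing without replicate 1 or 2, the receptor-associated Trat1 -2.19, not passing without replicate 1, and Bmp7 -1.79. The phospholipid flippase gene Atp8a2 had -3.06 and passed in all 5 alternatives tried for it. On the other side the semaphorin receptor gene Nrp1, often used as a marker of thymic Treg cells, had 2.34 and the sialic acid hydroxylase gene Cmah 2.13, neither passing without replicate 2. Ly6c2, a surface protein gene of memory cells, had 5.32 and the immunoglobulin gene Iglv1 4.32, neither passing without replicate 1, and Iglv1 not without replicate 3 either. The immunoglobulin segment Igkv1-117 had 10.10, from the large clones of replicate 3 alone (734.8 CPM), and did not pass without that replicate or with DESeq2. Without the replicate block Ly6c2, Iglv1, Nrp1, Cmah, Ccl3, Apol7b and Igkv1-117 did not pass.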

How the results depend on the processing

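Main counts of genes that differed, higher then lower in large clones, were 355 and 453. DESeq2 gave 124 and 235, no filter on low counts 547 higher, totals without TMM 543 higher, 1 cell per clonotype 94 and 174, equal cells per cluster 24 and 101, and leaving out 1 replicate 73 to 360 and 161 to 540. With no replicate block, as a check on the pairing by hashed replicate, they were 198 and 316, and 508 of the 808 calls were kept; under no alternative run did a call pass in the opposite direction, though 746 of 777 calls kept their direction with equal cells per cluster and 691 of 699 with 1 cell per clonotype. Within the Th17-like clusters (20 and 67) the counts with no replicate block were 0 and 1, with DESeq2 0 and 2, with no filter 33 and 33, with 1 cell per clonotype 1 and 0, with equal cells per cluster 0 and 0, without the largest clonotypes 16 and 69, and without 1 replicate 0 to 12 and 4 to 36. For clonotypes of 2 to 4 cells (58 and 147) they were 28 and 92 with no replicate block, 19 and 48 with DESeq2, 121 higher with no filter, 3 and 2 with equal cells per cluster, and 18 to 122 and 38 to 204 without 1 replicate. For the gate difference (47 and 106) they were 6 and 30 with no replicate block, 13 and 66 with DESeq2, 108 and 178 with no filter, and 13 to 46 and 53 to 107 without 1 replicate. Equal cells per cluster and 1 cell per clonotype also use fewer cells; the cause of the other shifts was not tested. The second beta difference was -1.69 percentage points without single cells that share a junction. Log2 fold changes of large clones over single cells turned sign as follows. With equal cells per cluster Il17f, called in the main comparison, had -0.34, Ccr6 0.38, Il13 1.21, Il2ra -0.026, Mki67 0.032 and Nr4a1 -0.28. With 1 cell per clonotype Ifng had -0.26, Tbx21 -0.12, Il13 1.14 and Nr4a1 -0.090. Thinned to 2000 UMIs Tbx21 had -0.32 and Il2ra -0.022. With large set at 10 or more cells Csf2 had -1.08 and Mki67 0.010. Mki67 had 0.022 with DESeq2, 0.0026 with no filter, 0.032 without TMM and 0.32 without the cycling cluster. Nr4a1 had -0.0044 with DESeq2, -0.011 without the largest clonotypes, -0.051 without second chains, -0.048 with neither shared junctions nor second chains, -0.042 without the cycling cluster, -0.020 without cells that lack a cluster, -0.007 without single cells paired to another replicate and -0.06 without pairs in several replicates. Without 1 replicate the range was -1.07 to 0.053 for Il13, -1.04 to 1.39 for Csf2, -0.18 to 0.24 for Mki67, -0.80 to 0.68 for Gzma (-0.89 without pairs in several replicates), -0.15 to 0.089 for Nr4a1, and -0.334 to 0.267 bases for alpha junction length. V segments could not be fitted at a minimum count of 10, nor for alpha without replicate 2. Nsg2 in large clones rested on few UMIs, and the single cells of replicate 1, 106 cells, limit what low genes can show.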

Other observations

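The cytotoxic-like cluster held 12 large-clone cells, all in replicate 3 (1.32% of its large-clone cells), and 9 of them belonged to the TRAV7D-2 and TRBV13-2 clonotype of 23 cells that had no Foxp3 UMI. Other T cell genes over all clusters had these log2 fold changes of large clones over single cells: the activation marker Cd69 0.21 (SE 0.06, edgeR adjusted p = 0.0319, a call lost in 13 of 21 alternatives), and, without passing, the cytokine genes Il22 -0.66 and Csf2 0.42, the chemokine receptor gene Ccr6 -0.29, Gzma, a granzyme gene, -0.90, and Tmeff2 0.62.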
